A study of Arabidopsis halleri subsp. gemmifera and Arabidopsis thaliana with 4 samples.

Results

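The genes described here are 7 loci that sense and transmit phosphate status in plants: PHR1 (AT4G28610), SPX1 (AT5G20150), SPX2 (AT2G26660), SPX3 (AT2G45130), SPX4 (AT5G15330), PHO2 (AT2G33770) and PHF1 (AT3G52190). They were chosen by name and locus identifier, without use of a measured value, and are 7 of the 33602 loci in the deposited tables. Root RNA was sequenced from Arabidopsis halleri subsp. gemmifera, a zinc- and cadmium-hyperaccumulating relative of the model plant, and from Arabidopsis thaliana, with 2 libraries per species labelled as biological replicates. Both species were grown hydroponically in the same solution. It held 0.5 mM ammonium dihydrogen phosphate as its phosphate source, 3 mM potassium nitrate, 0.8 µM zinc sulphate and 10 µM iron as NaFeEDTA. All 4 libraries carry the label control, and the labels name no mutation, transgene, ecotype or plant age. The study as a whole was about a nicotianamine transporter of the root, and the comparison its design gives for the phosphate genes is A. halleri root against A. thaliana root.

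PHR1 is a MYB-type transcription factor that binds a short palindrome, the P1BS motif, in the promoters of phosphate starvation genes. SPX proteins bind inositol pyrophosphates, which are abundant in phosphate-replete cells, and in that state hold PHR1 and its relatives away from DNA. When phosphate runs low, PHR1 is released and induces, among others, the microRNA miR399, which targets the transcript of PHO2, an E2 ubiquitin-conjugating enzyme that marks phosphate transporters for degradation. The non-coding RNAs IPS1 and AT4 bind miR399 without being cut and hold it away from PHO2. PHF1 works in the endoplasmic reticulum, where it lets PHT1 phosphate transporters leave for the plasma membrane.

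The miR399 sequences and the PHO2 sites they pair with are shown because they are the sequence link between the starvation signal and PHO2. The RefSeq TAIR10.1 annotation of A. thaliana holds 6 miR399 loci, and all 6 mature forms share the seed, bases 2 to 8, in capitals below. The mature form of miR399c-3p (chr5:24962568-24962588, plus strand) is identical to that of miR399b.
miR399a (chr1:10227165-10227185, plus strand): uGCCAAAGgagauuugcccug
miR399b (chr1:23345387-23345407, minus strand): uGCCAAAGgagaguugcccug
miR399d (chr2:14442988-14443008, minus strand): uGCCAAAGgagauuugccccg
miR399e (chr2:14443582-14443602, plus strand): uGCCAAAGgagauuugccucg
miR399f (chr2:14445084-14445104, plus strand): uGCCAAAGgagauuugcccgg

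The PHO2 transcript was searched for stretches in which at least 16 of the 21 miRNA bases form Watson-Crick pairs. It held 5, all in the 5′ untranslated region, between transcript base 680 and the first coding base at 1226. Each pairs 19 of 21 bases with its best-matching miR399 and all 7 seed bases. They are written 5′ to 3′ on the minus strand of TAIR10.1, with paired bases in capitals.
PHO2 site at transcript base 680 (chr2:14282106-14282126): tAGGGCAAATCTtCTTTGGCA
PHO2 site at transcript base 813 (chr2:14281973-14281993): tAGGGCAtATCTCCTTTGGCA
PHO2 site at transcript base 902 (chr2:14281884-14281904): ttGGGCAAATCTCCTTTGGCA
PHO2 site at transcript base 959 (chr2:14281827-14281847): tCGaGCAAATCTCCTTTGGCA
PHO2 site at transcript base 1016 (chr2:14281770-14281790): tAGaGCAAATCTCCTTTGGCA

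The mimics IPS1 and AT4 each held 1 such stretch, shown for the contrast with PHO2. In both, 18 of 21 bases pair with miR399b, and 3 extra bases lie opposite the gap between miRNA bases 10 and 11, the position where a sliced target is cut. The extra bases are the last 3 of the lower-case run in the middle of each sequence.
IPS1 site (chr3:3051224-3051247, plus strand): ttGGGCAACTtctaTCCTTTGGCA
AT4 site (chr5:895149-895172, plus strand): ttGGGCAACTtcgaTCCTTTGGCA
These are A. thaliana sequences. The matching A. halleri sequences were not analysed here.

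**Figure D1:**
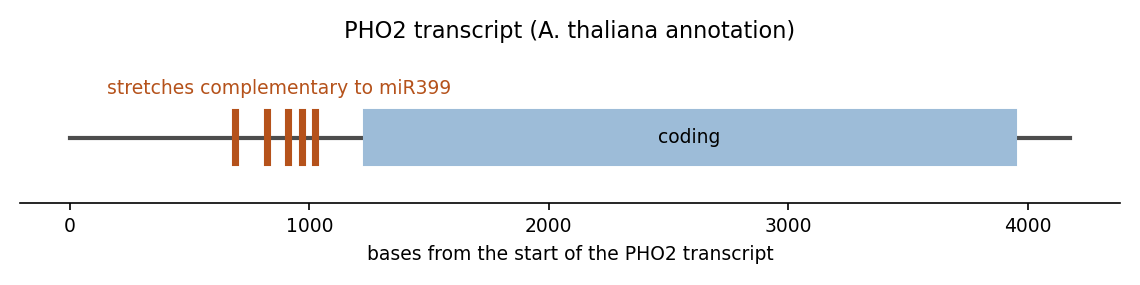
Map of the PHO2 transcript in bases from its 5′ end, with the 5 stretches complementary to miR399 marked as ticks. All 5 lie before the coding region, which begins at base 1226 of 4176.

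The libraries held 15497893 and 16335761 gene reads from A. halleri and 18127031 and 22762183 from A. thaliana. The transcript models used for counting were those of A. thaliana throughout, so a lower count in A. halleri because of a diverged sequence cannot be told apart from a lower transcript level. Likewise, in whole roots, fewer cells of a type and less RNA per cell cannot be told apart. All 8 root markers were detected in every library. Of them, 5 were called higher in A. halleri in edgeR's test, 0 lower and 3 not called. Over all tested loci, 72.5% were called and 35.7% were higher. The root markers summed to 6593 and 5892 counts per 1000000 reads of scaled library size (CPM) in A. halleri. The A. thaliana sums were 1700 and 1621 CPM. Most of each sum was PYK10, at 6260 and 5601 CPM in A. halleri versus 1412 and 1337 in A. thaliana. The other marker lists also differed between the species. The summed level of 8 green-tissue genes was 107 and 164 CPM in A. halleri versus 31.7 and 25.2 in A. thaliana. That of 6 heat-response genes was 101 and 101 against 454 and 442, and that of 8 low-oxygen genes was 6514 and 7747 against 28350 and 28699. None of the genes in these lists was at 0 in all libraries, and their part in the results that follow was not tested. The names under which the libraries were deposited carry 1 run prefix for replicate 1 of both species and another for replicate 2, so each difference was also taken within a replicate number.

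PHO2 was higher in A. halleri roots by 2.40-fold, and PHR1, SPX1 and SPX2 were lower there by 1.87-fold to 2.54-fold. PHF1 and SPX4 lay within 1.11-fold between the species and did not pass the test. SPX3 was close to the detection limit in every library. Of the 7 loci, all of which were tested, 3 were lower, 2 higher and 2 not called at an adjusted p of 0.05 by edgeR's quasi-likelihood test. Over all 20899 loci tested, the same rule called 72.5%, with 35.7% higher and 36.8% lower in A. halleri, so a call was the common outcome. SPX3 is 1 of the 2 called higher and passed the low-count filter only through A. halleri, where it is high. Without loci that passed the filter through 1 species, a choice made after seeing the data, 4 of 6 members were called, 3 lower and 1 higher, against 69.1% of 17996 loci. Both counts lie near their background. The 2 libraries of each species did not overlap for any of the 7 loci, against 87.2% of all tested loci. The p-values rest on the spread between 2 libraries per species, which edgeR moderates with the spread of the other tested loci. An exact permutation test of 2 against 2 libraries cannot give a p below 0.33.

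**Figure D2:**
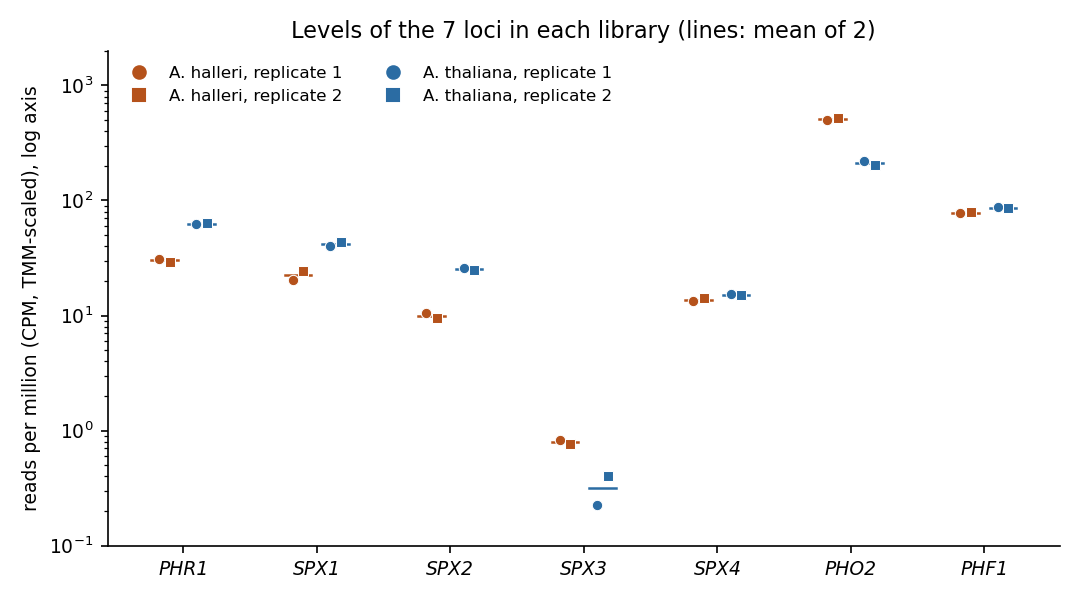
Level of each of the 7 loci in every library, in CPM on a logarithmic axis, with A. halleri and A. thaliana libraries side by side. PHO2 reached 502 and 518 CPM in A. halleri versus 220 and 204 in A. thaliana, while SPX3 stayed below 1 CPM in all 4 libraries.

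PHR1, the activator at the head of the pathway, lies on the minus strand at chr4:14132811-14135292 and has 8 exons. It had 530 and 457 reads in A. halleri versus 1096 and 1407 in A. thaliana. These were 31.3 and 29.0 CPM against 62.2 and 63.6 CPM, so both A. halleri libraries lay below both A. thaliana libraries. The means were 30.1 ± 1.59 and 62.9 ± 0.943 CPM (SD, n = 2 each), a log2 difference of -1.06 (SE 0.09), or 2.09-fold lower in A. halleri, with an adjusted p of 4.45e-05 in edgeR's test. Within replicate numbers 1 and 2 the log2 difference was -0.99 and -1.13. The size of the PHR1 difference ranked at percentile 61.5 among all tested loci. It did not pass a test against a 2-fold change (adjusted p = 0.284), which 30.6% of all tested loci and 2 of the 7 members, SPX2 and PHO2, passed. PHR1 overlaps AT4G28600, annotated on the other strand, by 59 bases, and reads there cannot be assigned to either gene because no strand setting is stated for the counting.

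For the lists of related genes that follow, the share of all tested loci called, 72.5%, with 35.7% higher and 36.8% lower, is the background of each count, and a share near it says nothing about the list. Of 4 factors similar to PHR1, 1 passed as higher, 1 passed as lower and 2 did not pass, and their median log2 difference was 0.14, beside -0.01 for all tested loci. PHL1, the closest functional partner of PHR1, had a mean of 44.8 ± 0.723 CPM in A. halleri versus 42.3 ± 1.23 in A. thaliana and was not called (adjusted p = 0.434). Only 15 and 20 of its 751 and 714 reads in A. halleri, and 57 and 66 of its 761 and 918 in A. thaliana, were unique to 1 model. On unique reads alone its log2 difference was -1.49, which passed edgeR's test (adjusted p = 0.00182). The locus AT4G13640, annotated as a homeodomain-like protein, was lower in A. halleri, at 12.4 ± 0.0381 CPM against 24.6 ± 1.84 (log2 difference -0.99, adjusted p = 0.000206). The size of the AT4G13640 difference depended on the reads used. It was -0.54 (adjusted p = 0.0392 in edgeR's test) on unique reads and -1.29 with the most-counted model alone. Its unique reads were 60 and 60 in A. halleri versus 88 and 131 in A. thaliana. AT3G24120, of the same annotated family, was slightly higher, at 34.3 ± 0.644 against 27.9 ± 1.3 CPM (log2 difference 0.29, adjusted p = 0.0275), a call that was lost under DESeq2 (adjusted p = 0.108) and on unique reads alone (0.0850). The fourth, AT2G20400, with a myb-like domain, was not called, at 17.3 ± 1.53 against 15.0 ± 0.394 CPM (log2 difference 0.20, adjusted p = 0.182). The AT3G24120 call was also lost without either A. halleri library or without the first A. thaliana library, where the adjusted p was 0.0546 to 0.130. Per kilobase of transcript, PHR1 stood at 0.642 and 0.583 times PHL1 in A. halleri and at 1.31 and 1.40 times PHL1 in A. thaliana. That ratio used total reads, few of which were unique for PHL1.

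SPX1 and SPX2, the pair of nuclear inhibitors of PHR1, were both lower in A. halleri. SPX1 (chr5:6802282-6803655, plus strand, 3 exons) had 344 and 388 reads in A. halleri versus 703 and 971 in A. thaliana, or 20.3 and 24.6 CPM against 39.9 and 43.9 CPM. The log2 difference was -0.90 (SE 0.12), 1.87-fold, with an adjusted p of 0.000422. SPX2 (chr2:11338752-11340950, plus strand, 3 exons) had 178 and 149 reads against 452 and 554. Its level of 10.5 and 9.45 CPM in A. halleri lay below 25.7 and 25 CPM in A. thaliana, with a log2 difference of -1.34 (SE 0.12), 2.54-fold, and an adjusted p of 4.81e-05. For both genes the A. halleri libraries were the low ones, and the direction held within replicate 1 (-0.97 and -1.28) and replicate 2 (-0.83 and -1.39). Against a 2-fold change SPX1 did not pass (adjusted p = 1).

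SPX3, a small SPX protein whose gene is strongly induced by phosphate starvation in A. thaliana, was barely detected under this phosphate-containing solution. It had 14 and 12 reads in A. halleri versus 4 and 9 in A. thaliana, or 0.825 and 0.761 CPM against 0.227 and 0.407 CPM. The locus (chr2:18606410-18607853, plus strand) passed the low-count filter only through the A. halleri libraries, so its call in edgeR's test (log2 difference 1.27, SE 0.43, adjusted p = 0.0301) is given as a description only. The pooled counts of 26 and 13 reads, scaled for depth, gave a ratio of 2.43 with a 95% interval of 1.2 to 5.15 that covers counting error only. The call was lost with DESeq2 (adjusted p = 0.253), without the low-count filter (0.0640), with a replicate block (0.0577) and without any 1 of the 4 libraries (0.0575 to 0.201).

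SPX4 differed little between the species. It had 227 and 222 reads in A. halleri versus 270 and 335 in A. thaliana, or 13.4 and 14.1 CPM against 15.3 and 15.1 CPM. The A. halleri libraries were the lower ones, but the log2 difference of -0.15 (SE 0.12) did not pass the test (adjusted p = 0.291), and its 95% interval of -0.43 to 0.13 spans 0. SPX4 lies at chr5:4980374-4982231 on the plus strand.

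PHO2 had the most reads of the 7 loci in all 4 libraries and was higher in A. halleri. The gene (chr2:14277558-14283113, minus strand) has 9 exons and carries the 5 miR399-complementary stretches shown above. It had 8522 and 8157 reads in A. halleri versus 3882 and 4521 in A. thaliana. In CPM these were 502 and 518 against 220 and 204, with both A. halleri libraries above both A. thaliana libraries. The means were 510 ± 10.7 and 212 ± 11.4 CPM (SD, n = 2 each), a log2 difference of 1.26 (SE 0.09), 2.40-fold, with an adjusted p of 1.40e-05. Within replicates 1 and 2 it was 1.19 and 1.34. The rank of this difference was percentile 67.3 of all tested loci.

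The 2 mimics of the miR399 sites in PHO2, IPS1 and AT4, went the other way. IPS1 had 18 and 28 reads in A. halleri versus 371 and 502 in A. thaliana, or 1.06 and 1.78 CPM against 21.1 and 22.7 CPM, a log2 difference of -3.95 (SE 0.22), 15.5-fold lower, with an adjusted p of 5.21e-06. AT4 had 129 and 125 CPM in A. halleri versus 226 and 247 CPM in A. thaliana, 1.86-fold lower (adjusted p = 7.73e-05). The counting of non-coding RNA from A. halleri on A. thaliana models is subject to the same limit on diverged sequence. The 6 miR399 precursor loci and the miR827 locus were listed at 0 reads in all 4 libraries, which allows up to 3 reads per library. Only 17 of 178 annotated miRNA loci had any read; mature miRNAs were not measured in these libraries. The summed IPS1 and AT4 level, per kilobase, was 1.53 and 1.46 times that of PHO2 in A. halleri versus 6.79 and 7.99 times that of PHO2 in A. thaliana, a ratio 4.95 times higher in A. thaliana.

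PHF1, at chr3:19353867-19357261 on the minus strand with 10 exons, and SPX4 had the smallest differences of the 7, and the order between the 2 turned without the first A. halleri library. PHF1 had 1328 and 1239 reads in A. halleri versus 1530 and 1889 in A. thaliana, or 78.3 and 78.6 CPM against 86.9 and 85.3 CPM. The log2 difference was -0.13 (SE 0.08), 1.1-fold, with an adjusted p of 0.184 and a 95% interval of -0.33 to 0.06. The A. halleri libraries were again the lower ones, without overlap. The transporters that PHF1 serves had summed PHT1 levels of 833 and 904 CPM in A. halleri versus 942 and 907 CPM in A. thaliana, close to each other, although 6 of the 7 PHT1 loci tested were called higher and 1 lower (median log2 difference 2.00), and the other 2 of the 9 loci were listed at 0. PHT1;5, with 13 and 20 reads in A. halleri versus 2 and 6 in A. thaliana, passed the low-count filter only through A. halleri, and without it 5 of 6 were higher and 1 lower. PHT1;1, a main root transporter, was lower, at 522 ± 29.7 against 890 ± 21.3 CPM. PHT1;2, its near-identical neighbour, was higher, at 278 ± 17.4 against 12.9 ± 1.79 CPM. The split of reads within that pair is uncertain, since only 15 and 27 of the 4501 and 4570 PHT1;2 reads in A. halleri were unique, and on unique reads alone the log2 difference of PHT1;2 was 1.25 (adjusted p = 0.0284) in place of 4.43. PHT1;3 and PHT1;9 were higher as well, 8.58-fold and 3.93-fold. Per kilobase, PHF1 stood at 0.107 and 0.0995 times the PHT1 sum in A. halleri versus 0.109 and 0.111 times in A. thaliana.

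**Figure D3:**
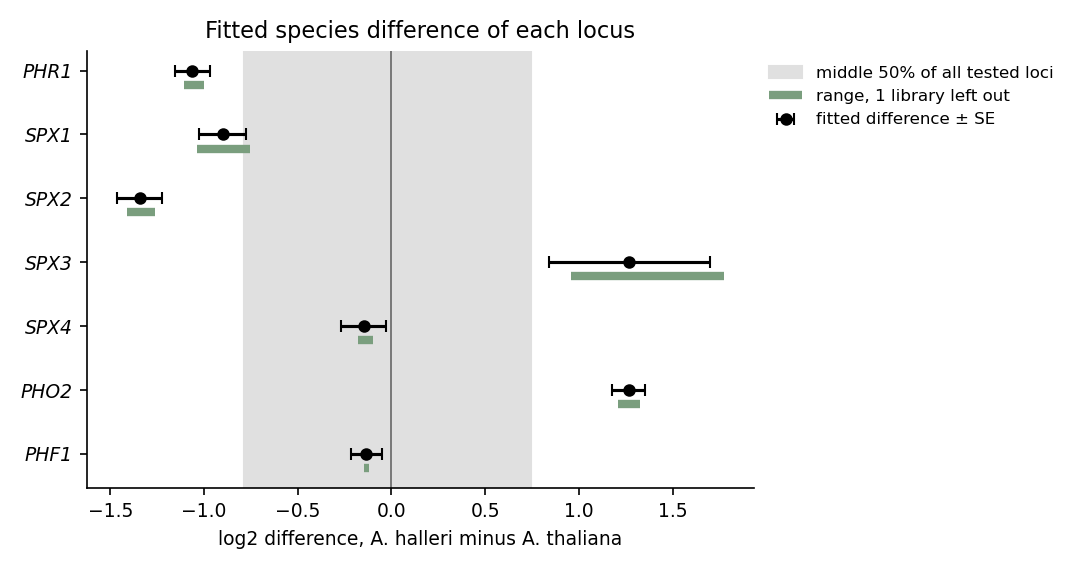
Log2 difference of each of the 7 loci, A. halleri minus A. thaliana, from edgeR's test with its SE. A separate bar gives the range of that difference on leaving out each library in turn. Grey spans -0.79 to 0.75, the 25% and 75% quantiles of all tested loci. PHO2 lies at 1.26, PHR1, SPX1 and SPX2 lie between -0.90 and -1.34, and SPX4 and PHF1 lie near 0.

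Levels per kilobase, in CPM per kilobase of transcript, allowed the loci to be ordered within a species. In A. halleri the order from high to low was PHO2, PHF1, SPX1, PHR1, SPX4, SPX2 and SPX3, and the libraries of neighbours in that order did not overlap. In A. thaliana it was PHF1, PHO2, SPX1, PHR1, SPX2, SPX4 and SPX3, and only SPX1 and PHR1 overlapped. PHO2 thus stood at 122 and 126 CPM per kilobase in A. halleri versus 53.7 and 49.8 in A. thaliana, and PHF1 at 52.0 and 52.2 against 57.7 and 56.7.

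The balance of inhibitors to activator was compared with ratios within a library, which do not depend on the scaling between libraries. The summed level of SPX1 to SPX4 was 39.7 and 43.3 CPM per kilobase in A. halleri versus 72.3 and 75.4 in A. thaliana. Relative to PHR1 it was 2.15 and 2.53 in A. halleri versus 1.97 and 2.01 in A. thaliana, a mean of 2.34 ± 0.265 against 1.99 ± 0.0293. Without SPX4 the sum relative to PHR1 overlapped between the species, at 1.57 and 1.87 against 1.64 and 1.69. SPX1 over PHR1 overlapped between the species, at 1.01 and 1.32 against 1.00 and 1.08. SPX2 over PHR1 was lower in A. halleri, at 0.512 and 0.497 against 0.628 and 0.600, and SPX4 over PHR1 was higher, at 0.579 and 0.657 against 0.33 and 0.322. SPX4 made up 26.9% and 26.0% of the SPX1 to SPX4 sum in A. halleri versus 16.9% and 16% in A. thaliana, while the SPX1 share of 47.0% and 52.4% overlapped with 50.8% and 53.5%. PHO2 over PHR1 was 6.63 and 7.36 in A. halleri versus 1.46 and 1.33 in A. thaliana, 5.02 times higher. These ratios are descriptions and were given no test.

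**Figure D4:**
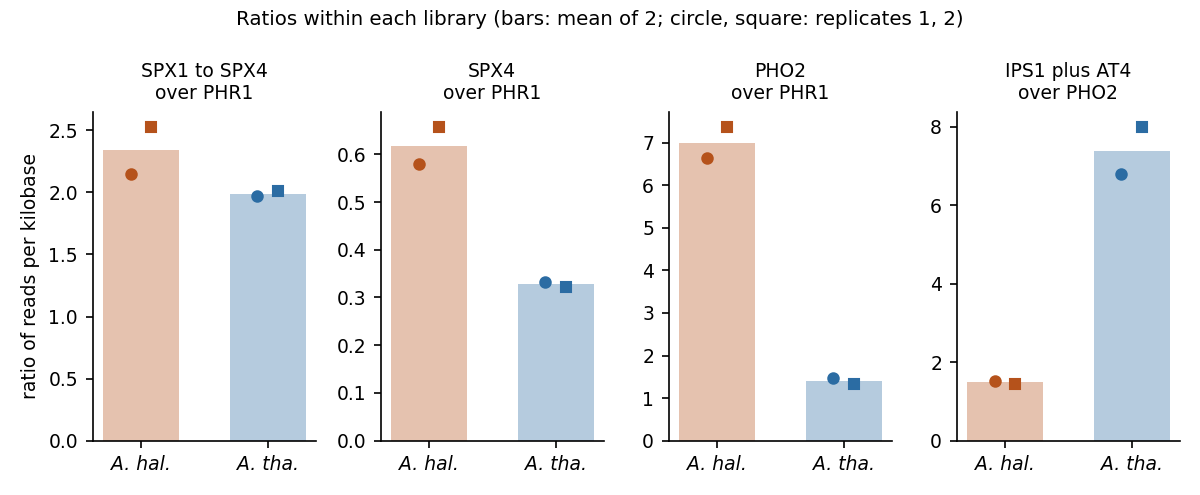
Ratios between loci within each library, from levels per kilobase, for A. halleri and A. thaliana libraries. PHO2 over PHR1 was 6.63 and 7.36 in A. halleri versus 1.46 and 1.33 in A. thaliana. The SPX1 to SPX4 sum over PHR1 was 2.15 and 2.53 in A. halleri versus 1.97 and 2.01 in A. thaliana.

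Because PHR1 acts through the P1BS motif, GNATATNC, the 7 genes were searched for it upstream. The motif is its own reverse complement, so both strands give the same matches. Within 250 bases before the gene start, 1 of 7 held it, against 5.46% of 27443 protein-coding genes, and within 1000 bases 4 of 7 held it, against 20.3%. The stretches are shown with the motif in capitals and 20 bases on either side, in the direction of the gene, from the TAIR10.1 sequence.
SPX3 at 213 bases before the gene start (chr2:18606177-18606224, plus strand): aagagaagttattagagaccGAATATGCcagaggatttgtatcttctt
SPX3 at 90 bases (chr2:18606300-18606347, plus strand): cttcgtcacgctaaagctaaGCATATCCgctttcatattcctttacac
SPX1 at 735 bases (chr5:6801527-6801574, plus strand): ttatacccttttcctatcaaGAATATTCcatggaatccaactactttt
SPX4 at 338 bases (chr5:4980016-4980063, plus strand): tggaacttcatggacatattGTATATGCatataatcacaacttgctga
PHO2 at 526 bases (chr2:14283612-14283659, minus strand): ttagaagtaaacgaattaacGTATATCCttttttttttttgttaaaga
PHR1, SPX2 and PHF1 held no such letters in the 1000 bases. A match is a description of letters and not a site. Of the other lists, 4 of 4 HRS1-like loci, 2 of 2 mimics, 7 of 9 PHT1 loci and 9 of 16 starvation-induced genes held the motif within 1000 bases, as did 3 of 7 other regulators. The motif was in 1 of 4 factors similar to PHR1, 1 of 6 further SPX-domain loci, 1 of 8 inositol phosphate kinase loci and 0 of 5 root-tip genes.

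Inositol phosphate kinases make the ligand of SPX proteins and its precursors. Of 8 such loci, 1 was higher and 7 were lower, where 72.5% of all tested loci were called and 36.8% were lower, and their median log2 difference was -0.76. AT5G15070, annotated as a phosphoglycerate mutase-like protein, stood at 3.60 ± 0.159 CPM in A. halleri versus 12.2 ± 1.9 in A. thaliana (3.38-fold lower, adjusted p = 0.000124). Only 7 and 6 of its 63 and 55 A. halleri reads were unique, and 34 and 36 of its 239 and 241 A. thaliana reads. With unique reads its log2 difference was -2.10 in place of -1.76. IPK1, which phosphorylates inositol phosphates at the 2-position, was 18.4 ± 1.47 against 36.2 ± 2.26 CPM (1.96-fold lower, adjusted p = 0.000181). ITPK2, an inositol polyphosphate kinase, was the locus called higher, at 24.1 ± 0.516 against 6.33 ± 0.120 CPM (3.81-fold, adjusted p = 9.63e-06). Against a 2-fold change, 2 of the 8 passed, beside 30.6% of all tested loci.

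HRS1 and 3 similar loci, MYB-type factors that link nitrate and phosphate signals in A. thaliana, were 1 higher and 3 lower, with a median of -1.13. HRS1 stood at 65.1 ± 6.57 against 108.5 ± 1.28 CPM (1.67-fold lower), AT1G68670 at 18.3 ± 2.98 against 64.6 ± 1.45 (3.54-fold lower) and AT1G25550 at 26.5 ± 0.0978 against 76.3 ± 8.40 (2.88-fold lower). AT3G25790 was higher, at 40.1 ± 6.44 against 8.79 ± 0.222 CPM (4.56-fold). All 4 had adjusted p-values of 0.000387 or less in edgeR's test.

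Among 6 further loci with an SPX domain, 3 were higher and 1 lower, and 2 did not pass. Of the 3, AT4G11810, with 11 and 9 reads in A. halleri and 0 in both A. thaliana libraries, passed the low-count filter only through A. halleri, and AT1G63010 reversed with the reads used, which leaves PHO1;H1. PHO1, which loads phosphate into the xylem, was 431 ± 26.9 CPM in A. halleri versus 1183 ± 6.16 in A. thaliana (2.74-fold lower, adjusted p = 9.39e-06), and its homologue PHO1;H1 was 96.3 ± 2.75 against 9.71 ± 0.318. AT1G63010, a Major Facilitator Superfamily protein with an SPX domain, was 167 ± 11.9 against 79.2 ± 4.60 CPM, and its direction reversed with unique reads (log2 difference -2.58) and with the most-counted model alone (-0.64). Only 1 and 5 of its A. halleri reads and 24 and 22 of its A. thaliana reads were unique.

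The 16 starvation-induced genes split: 6 were higher, 7 lower, 2 not called and 1 was listed at 0, with a median log2 difference of 0.05. Without the 3 that passed the low-count filter through 1 species, 6 of 12 were higher, 5 lower and 1 not called. PAP17, a purple acid phosphatase used as a starvation reporter, was 4.38 ± 0.357 CPM in A. halleri versus 24.7 ± 1.15 in A. thaliana, and GDPD1, a phosphodiesterase that recycles lipid phosphate, was 11.7 ± 1.13 against 30.9 ± 2.02. PLDP2, a phospholipase D, was higher, at 16.2 ± 0.148 against 4.21 ± 0.144 CPM. Over all tested loci, 7467 were higher and 7694 lower.

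Root-tip phosphate sensing genes, which couple phosphate to iron and growth at the tip, were 4 higher and 1 lower (median 0.72), where 72.5% of all tested loci were called and 35.7% were higher. The call of 1 of the 4, PDR2, was lost under several alternatives given with its values. The ferroxidase LPR2 was 127 ± 8.21 against 26.3 ± 0.748 CPM (4.82-fold) and LPR1 was 11 ± 0.121 against 2.88 ± 0.107 (3.82-fold), while STOP1, a zinc-finger regulator of malate release, was lower at 110 ± 6.47 against 269 ± 17.9 CPM (2.45-fold). The STOP1 log2 difference was -1.29, and it depended on the reads used: -3.58 (adjusted p = 1.84e-05) with the most-counted model alone and -0.80 (adjusted p = 0.156) on unique reads, of which there were 10 and 9 in A. halleri versus 11 and 31 in A. thaliana. ALMT1, the malate channel, was 8.24 ± 0.524 against 5.0 ± 0.0849 CPM (log2 difference 0.72, adjusted p = 0.00628). PDR2, a P5-type ATPase, was 118 ± 7.35 against 101 ± 0.251 CPM, and its call (log2 difference 0.23, adjusted p = 0.0451) was lost with DESeq2 (0.0902), with a replicate block (0.0670) and without the second A. halleri library (0.165) or either A. thaliana library (0.130 and 0.151). Of 7 other regulators, 1 was higher and 5 lower, with 1 not tested; 1 of the 5, WRKY45, passed the low-count filter only through A. thaliana. The transcription factor WRKY42 was 12.6 ± 0.343 against 1.48 ± 0.403 CPM and WRKY75 was 4.30 ± 1.91 against 11.2 ± 3.40. ZAT6 was 28.2 ± 7.0 against 98.2 ± 61.1, a log2 difference of -1.80 that became -0.96 without the first A. thaliana library and -2.33 without the second. The WRKY75 difference of -1.38 became -0.96 without the first A. halleri library and -1.90 without the second.

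**Figure D5:**
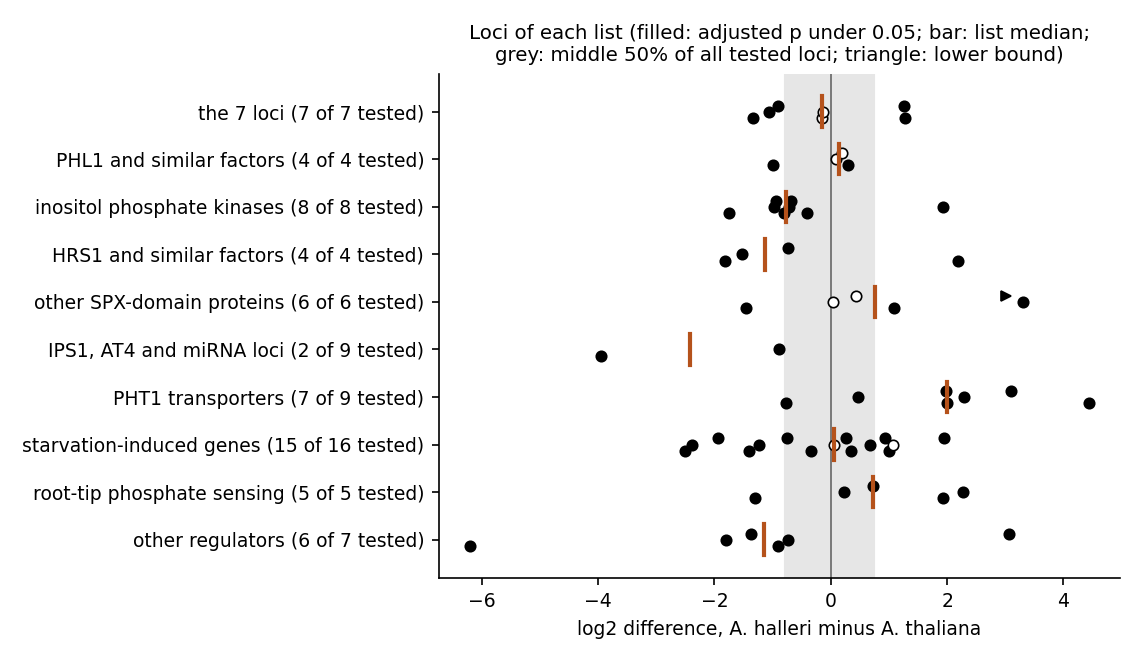
Log2 difference, A. halleri minus A. thaliana, of each tested locus in the phosphate lists, with filled points for loci called at an adjusted p of 0.05, bars for list medians and grey for the middle 50% of all tested loci. The inositol phosphate kinases lie mostly below 0, at a median of -0.76, and the PHT1 loci mostly above it, at 2.00. The triangle is a lower bound for a locus with 0 reads in A. thaliana, and the leftmost point rests on 3 reads in A. halleri.

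Outside the pathway, the locus most like each member in its 4 library levels, after centring on the log2 scale, was XTH28 for PHR1 (root-mean-square distance 0.0167), ICK5 for SPX1 (0.0118), AT1G35190 for SPX2 (0.0170), TPL for SPX4 (0.000648), AT2G05920 for PHO2 (0.0131) and UBC10 for PHF1 (0.0111). With 4 libraries in 2 groups such likeness is common: 504 loci lay within 0.1 of PHR1 and 1675 within 0.1 of PHF1. SPX3 was left out because it had fewer than 10 reads in a library.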

How the data were processed

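Gene reads per transcript model were deposited as raw counts, with unique and total gene reads in separate columns, and as RPKM values that the authors computed per kilobase and per 1000000 gene reads, per the file headers. The build was TAIR10 per the submitters' processing notes. No source used here states the aligner, counter, strand setting or filters. Total gene reads were summed over the models of a locus. Loci that passed edgeR's filterByExpr were tested with edgeR 4.0.16 (quasi-likelihood F test, TMM scaling, R 4.3.3), A. halleri against A. thaliana, with Benjamini-Hochberg adjustment over all 20899 tested loci at 0.05. There were 2 residual degrees of freedom, and the common biological coefficient of variation was 0.112. CPM used effective library sizes, and 1 read was worth 0.0452 to 0.0634 CPM. The script was checked on simulated data, where 18% of 1.5-fold, 98% of 2-fold and 100% of 4-fold changes were recovered. That simulation changed 200 loci at a common dispersion, unlike the real data, where 72.5% of tested loci were called. Alternatives were DESeq2 1.42.0, limma 3.58.1 on log2(RPKM + 1) and log2(RPKM + 0.1), other scalings, filters and read columns, a test against a 2-fold change, a replicate block and leaving out each library. Promoter, miRNA and transcript sequences came from RefSeq TAIR10.1, and their coordinates are on that build. The lists of related genes were chosen with earlier results of these data known. The member genes were fixed by name and locus identifier, without use of a measured value. Within each list, the loci named were those past the threshold with the largest difference among those reaching 10 CPM in a species, up to 3 per list, and every locus of a list of 5 or fewer. PHT1;1, PHT1;5, AT4G11810, WRKY45 and the root marker PYK10 fall outside that rule and were named after their values were seen. A locus was taken to pass the low-count filter through 1 species when both libraries of that species, and not both of the other, reached its cutoff.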

Additional observations from a re-analysis of the deposited data

How the results depend on the processing

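Of 16 alternatives, 1 required at least 1 CPM in every library, and SPX3 was not tested there. Over all 16, the 7 loci otherwise gave 101 results with the same direction and side of the threshold as reported, 10 that fell below the threshold and 0 reversals. Those that fell below it were SPX3 with DESeq2 (log2 difference 1.3), without the low-count filter (1.27), with the replicate block (1.29) and without each library (0.96 to 1.77), and, against a 2-fold change, PHR1 (-1.06), SPX1 (-0.90) and SPX3 (1.27). Against a 2-fold change, 6391 loci, 2 of the 7 members and 25 of the other pathway loci were called. By list, that test called 0 factors similar to PHR1, 2 inositol phosphate kinases, 1 mimic, 5 starvation-induced genes, 3 root-tip genes and 3 other regulators. Factors similar to PHR1 numbered 1 with DESeq2 and 1 to 2 without 1 library. Of 31 named pathway loci, 4 results reversed: PHL1 (-1.49 with unique reads, -0.0091 with the most-counted model) and AT1G63010 (-2.58 and -0.64). The replicate block called 14819 loci, and replicate-1 deviations of the species correlated at -0.0953, so the numbers were not treated as pairs. By its construction, limma on log2(RPKM + 1) gave smaller differences for low loci: SPX3 0.50, AT5G15070 -1.08 and WRKY42 2.27. Leaving out loci that passed the filter through 1 species, added after seeing the data, kept 12440 calls, with 4 among the members and 46 among the other pathway loci. Depth limits SPX3, with 4 to 14 reads, and the loci listed at 0.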
